A study of Drosophila melanogaster with 4 samples.

Results

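HP1c regions that were called when the replicates were combined, and that no single replicate contained, were described here on the autosomal arms 2L, 3L and 3R of Drosophila melanogaster. A region belonged to this group, called combined-only below, when it was narrower than 4000 bp and shared no base with any region of either replicate. The group was therefore chosen by the overlap of the lists and by width, and its size is a description. It held 1978 of the 8021 regions in the combined list, or 41.8% of the 4732 combined regions on the 3 arms (exact binomial 95% interval 40.4% to 43.2%, counting error only). Regions of any width that shared no base with a replicate made up 43.6% of the combined regions on these arms, and 43.6% over all sequences as well. The remaining combined regions on the 3 arms were 2084 overlapped by both replicates, 586 overlapped by 1 replicate and 84 without a replicate that were 4000 bp or wider.

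The regions came from 2 HP1c ChIP samples of wild-type Oregon-R embryos, labelled as 14 to 16 h old and cross-linked with 1.8% formaldehyde, each paired by its label with 1 of 2 input samples of the same strain and stage. Whole embryos were used, so that binding in few cells and weak binding in many cells cannot be told apart. The authors deposited 1 list of enriched regions per ChIP replicate and 1 combined list, on FlyBase release 5. No read counts come with them, the depth behind a region is unknown, and nothing in the labels says whether the replicates were separate collections.

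HP1c is a chromodomain protein of the heterochromatin protein 1 family. Its relative HP1a binds methylated lysine 9 of histone H3 and builds pericentric heterochromatin, whereas HP1c is known mainly from euchromatin, where it forms a complex with the zinc finger proteins WOC and ROW and is found near active promoters. ChIP-seq calls a region where sequenced fragments from the immunoprecipitate outnumber those expected from the input, so a region is a statement about a ratio between both samples.

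The combined-only regions gathered in blocks. On average a window of 100 kb held 2.61 of them, but the median window held 1, and 232 of 757 windows held none. At the other end, 150 windows (19.8%) held at least 5, 46 held at least 10, and 1 held 17. The variance of the number per window was 4.41 times its mean. Regions overlapped by both replicates had a nearly equal mean of 2.75 per window, with a variance of 2.02 times the mean and a highest count of 13. The numbers of combined-only and shared regions per window showed little rank correlation. Across the 757 windows, which all come from the same lists, the Spearman rho between both numbers was 0.05. By arm, the rho was 0.07 on 2L, 0.10 on 3L and 0.04 on 3R. A low rho can hide an uneven course. Shared regions averaged 2.49 per window at 0 combined-only regions, 3.49 at 5 to 7 and 1.57 at 12 to 17.

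**Figure D1:**
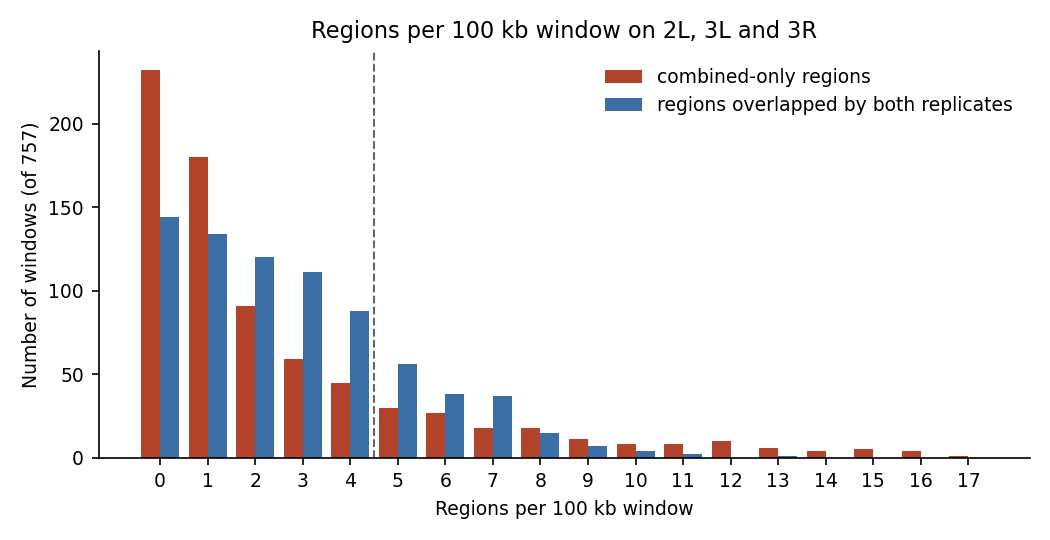
Number of 100 kb windows (y axis) that hold a given number of regions (x axis), for combined-only regions and for regions overlapped by both replicates, on 2L, 3L and 3R together. The dashed line marks the minimum of 5 for a block; the combined-only regions fill more windows than the shared ones at 0, at 1 and from 8 upwards, with 232 windows at 0 and 1 window at 17.

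A block was taken as a run of adjacent 100 kb windows with at least 5 combined-only regions each, reaching from the first base of its first region to the last base of its last. There were 63 blocks. They held 1259 combined-only regions (63.7%) on 12.6 Mb, which is 16.8% of the 3 arms, and 719 lay elsewhere. Within blocks the density was 99.5 combined-only regions per Mb, against 11.4 per Mb outside. This contrast follows from how blocks were drawn. Of the 63 blocks, 32 were a single window and 11 had 5 windows or more; these 11 alone held 733 combined-only regions (37.1%) on 7.11 Mb. The median block was 98.2 kb long with 10 members, and the longest spanned 1022 kb.

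The arm 2L held the most of them. It had 903 combined-only regions (51.9% of its combined regions, interval 49.5% to 54.3%), 3L had 449 (33.9%, 31.4% to 36.5%) and 3R had 626 (37.5%, 35.2% to 39.9%). Blocks took up 29.5% of 2L, 7.71% of 3L and 14.2% of 3R. Shared regions were spread more evenly over the arms, with 26.3, 27.3 and 29.0 per Mb on 2L, 3L and 3R. Together the 3 arms had 26.2 combined-only regions per Mb, against 6.07 per Mb on X, where 13.2% of the 1029 combined regions met the same rule. The autosomal arm 2R was not part of the rule and is not described, so these values do not compare all autosomes with X.

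Position along the arm differed from arm to arm. On 2L the 20% of the arm nearest the centromere held 357 of the combined-only regions (39.5%) and 23.0% of the shared ones. On 3L that part held 28.3% of the combined-only and 13.8% of the shared regions, and the 20% nearest the telomere held 26.5% and 24.4%. On 3R the 20% nearest the centromere held 10.7% of the combined-only and 22.1% of the shared regions. Its middle 20% held 33.9% of the combined-only regions and 18.3% of the shared ones, and the 20% nearest the telomere held 30.0% and 16.0%.

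The block with the most members was 2L 21524743 to 22399629, in the part of 2L nearest the centromere. Its 103 combined-only regions were 74.6% of the 138 combined regions in it, at 11.8 per 100 kb, with a median gap of 2720 bp. Replicate 1 had 20 regions there and replicate 2 had 22, and the combined list overlapped 19 and 22 of these. Before this block lay 111396 bp with no combined-only region, whereas the next one after it was 3826 bp away. The window that closes it, 2L 22300001 to 22400000, was the richest of all, with 17 combined-only and 0 shared regions.

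Of the other named blocks on 2L, 8510986 to 9295573 held 83 combined-only regions among 113 combined regions, with a median gap of 3700 bp and with 21 and 19 regions of replicates 1 and 2. The block 2L 19058120 to 20080491 was the longest, with 82 combined-only regions among 132 and a median gap of 7657 bp. It was also the richest in replicate regions, with 46 and 42. Both edges of this longest block were wide, with 104049 bp before it and 90043 bp after it free of combined-only regions. Shared regions did not stop at those edges: the first 100 kb within the block held 10 combined-only and 5 shared regions, against 0 combined-only and 9 shared regions in the 100 kb before it.

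On 3L the block 23430532 to 24159344, which ends 384213 bp before the centromere end of the assembled arm, was the one with the most members. Its 79 combined-only regions made up 87.8% of the 90 combined regions there, and shared regions were few, at 3. Replicate 1 had 4 regions in it and replicate 2 had 11, or 0.55 and 1.51 per 100 kb, against 10.8 per 100 kb for combined-only regions. The other named blocks of 3L were short. The block 10602331 to 10775309 held 20 combined-only regions in 173 kb and was dense in replicate regions too, with 11 and 12. The block 2400969 to 2576351 held 16 in 175 kb, with 7 and 3 replicate regions.

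On 3R the blocks 11201141 to 11794891 and 15504205 to 16098692 were alike in length, at 594 kb each, and in number, at 76 and 70. Combined-only regions were 82.6% of all combined regions in the first and 78.7% in the second. The first had 10 regions of replicate 1 and 11 of replicate 2, and the second 15 and 20. In the first 100 kb of the block at 15504205 there were 16 combined-only regions and no shared, replicate 1 or replicate 2 region, while the 100 kb before it held 3 combined-only, 4 shared, 4 replicate 1 and 4 replicate 2 regions. The third, 3R 22706302 to 22989137, held 23 combined-only regions among 31, with 7 and 9 replicate regions, and was followed by 136371 bp without a combined-only region.

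A few blocks held no replicate region at all. There were 3, singled out after their values were seen: 2L 15922770 to 16082589 with 17 combined-only regions, 3L 2967922 to 2993003 with 5 and 3R 26830578 to 26875346 with 5. In each of them all combined regions were combined-only, which the lack of replicate regions largely fixes. In 59 of the 63 blocks combined-only regions were over 50% of the combined regions, against 41.8% over the 3 arms. Blocks were drawn by their number of combined-only regions, so a high share in them is built in.

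Block edges were steps in the combined-only regions, whereas the mean numbers of replicate regions differed less across them. For the 14 blocks of 200 kb or longer, the 100 kb inside an edge held a mean of 10.3 ± 3.6 combined-only regions and the 100 kb outside it 1.59 ± 1.34 (SD over 27 edges with a full flank), higher inside at 27 of 27 edges. By the rule for blocks the window next to an edge has fewer than 5, so a drop is built in. The edges were placed by combined-only regions alone, although these were chosen to share no base with replicate regions. Shared regions averaged 2.59 ± 2.36 inside and 2.74 ± 2.35 outside, with 8 edges higher inside, 11 lower and 8 equal. Replicate 1 had 3.04 ± 2.68 inside and 3.67 ± 3.08 outside, and replicate 2 had 3.63 ± 2.62 inside and 3.33 ± 2.42 outside. In each of these 3 lists the difference of means was smaller than the SD between edges. That SD is the spread over edges and not the error of a difference, so a small step is not excluded. The edges are not independent either, because outer flanks of neighbouring blocks can overlap. An example is the stretch between the 2L blocks that end at 8390745 and start at 8510986.

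**Figure D2:**
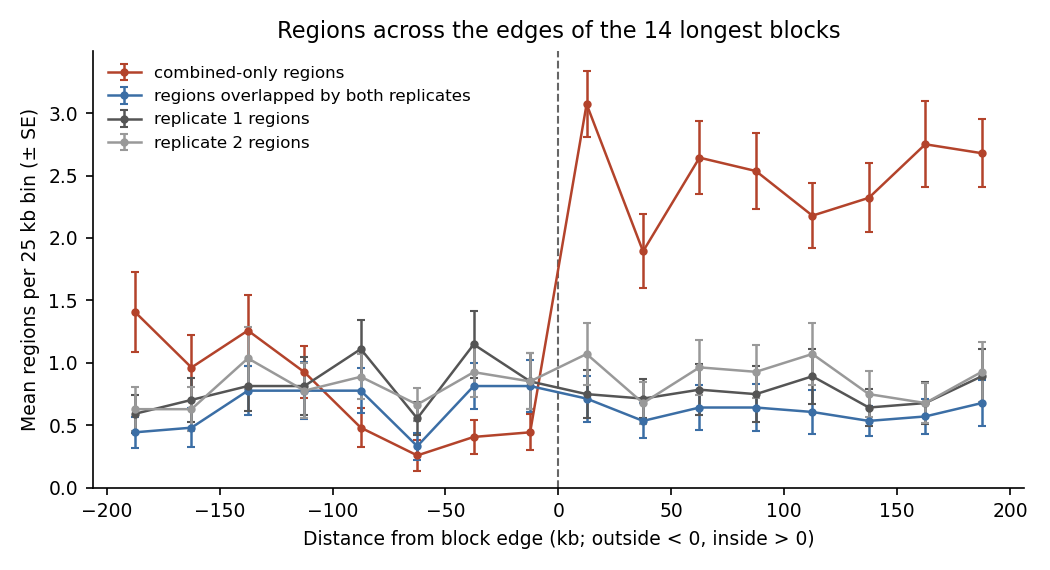
Mean number of regions per 25 kb bin (y axis, error bars are the SE over 28 edges inside and 27 outside) against the distance from the edge of a block (x axis, kb, positive inside), for the 14 blocks of 200 kb or longer. Combined-only regions average 3.07 in the first bin inside, which starts with a member by definition, stay above 1.8 further in, and average 0.44 in the nearest bin outside, while the shared regions and both replicates stay between 0.33 and 1.15 on either side.

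Gaps between neighbouring combined-only regions had a median of 5100.5 bp within blocks (quartiles 1546 and 12260 bp, 1196 gaps) and 41026 bp elsewhere, and the gap between neighbouring shared regions had a median of 12287 bp. Of the gaps within blocks, 211 (17.6%) were under 1000 bp and the largest was 95944 bp. At the 125 edges with another combined-only region beyond them, the outer gap had a median of 49713 bp. It exceeded the median gap of its own block at 119 edges and the largest gap of that block at 75. It was over 100 kb at 28 edges. At 16 edges it was under 10 kb, where the 100 kb grid cut through a run of regions: 656 bp before the block at 3R 11201141 and 1829 bp after the one ending at 3R 16098692 are examples. The widest stretch of the 3 arms without a combined-only region was 1409071 bp, on 3R, and ended at a block that starts at 21651847.

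The score of a region has no scale in the labels or headers, but its values fix one. Among the highest scores of combined-only regions, 3.35, 3.22, 3.08, 2.93 and 2.76 were 0.126, 0.138, 0.152 and 0.170 apart, steps that are the base-2 logarithms of 12/11, 11/10, 10/9 and 9/8. With 1 constant per list, 2 raised to the score was that constant times a ratio of whole numbers with a denominator up to 2000 (relative tolerance 1e-12) for 7978 of the 8021 combined regions, all 4669 regions of replicate 1 and all 4801 of replicate 2. The constants were 0.847, 1.33 and 0.485. With each constant multiplied by an irrational factor, 0 regions in any list gave such a ratio. For the scores that had resolved this outcome was fixed in advance, so it does not single out these constants. Because nearly all scores resolved in this way, a score is read here as a log2 ratio, 1 unit being a doubling. What the whole numbers count is not stated. The ratios are in lowest terms, so that a denominator is the smallest the score allows with the constant chosen. The same constant divided by a whole number would resolve these scores too, some of them with smaller denominators.

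Scores of combined-only regions lay in a narrow band. Their median was 0.42, with 90% of them between 0.32 and 0.86, and 73.6% had a score from 0.35 to below 0.5. Shared regions had a median of 0.61 with 90% between 0.31 and 1.35, and 25.6% of them were in that band. The median of the whole combined list was 0.47, and 75.9% of combined-only regions and 30.6% of shared regions were below it. Low scores were not particular to combined-only regions. Of the 586 regions overlapped by 1 replicate, 61.9% were in the band and 82.6% below the median of the list. Among combined-only regions the median score was 0.42 within blocks and 0.42 outside. All 63 blocks had a median within the band, from 0.37 to 0.49. Since both the choice of members and the scores rest on the same samples, these values describe the groups and are not tested.

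**Figure D3:**
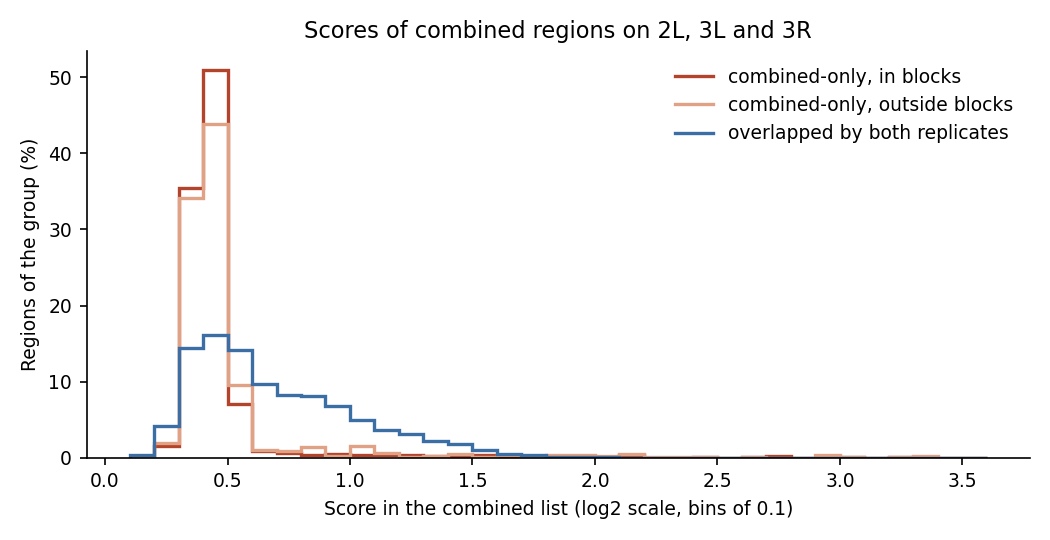
Share of the regions of each group (y axis, percent) by score in the combined list (x axis, log2 scale, bins of 0.1), for combined-only regions in and outside blocks and for regions overlapped by both replicates. Combined-only regions peak between 0.3 and 0.5 with a thin tail up to 3.35, whereas shared regions spread from 0.13 to 2.06.

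Width and score did not go together as they did in shared regions. The median width was 1394 bp for combined-only regions, 1467 bp in blocks and 1270 bp outside, against 2282.5 bp for shared regions; the limit of 4000 bp bears on this. The narrowest combined region was 1001 bp, and 81 combined-only and 2 shared regions on these arms had exactly this width, whereas no replicate region was narrower than 1301 bp. Over combined-only regions, Spearman's rho of width and score was -0.19, against 0.67 over the 1790 shared regions under 4000 bp and 0.63 over all shared regions (across regions, which are not independent). Over the 84 wider regions without a replicate it was 0.44. At the limit, the 2 widest combined-only regions were 3R 10970900 to 10974886 (3987 bp, score 0.40) and 3R 12013106 to 12017002 (3897 bp, 0.44). The 2 narrowest regions left out by width were 2L 19556192 to 19560207 (4016 bp, 0.38) and 2L 8887668 to 8891698 (4031 bp, 0.46).

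The highest scores among combined-only regions were higher than any among shared regions, and they came as repeated values. The 10 highest lay between 2.78 and 3.35, against a highest score of 2.06 among shared regions. Of these 10, 2L 2118834 to 2119862 and 3R 7668243 to 7669264 had the same score of 3.35, a ratio of 12 to 1. The regions 2L 8597222 to 8598225 and 3L 19855041 to 19856645 shared the score 3.22, or 11 to 1. A score of 3.08, or 10 to 1, belonged to 2L 17820211 to 17821216 and 2L 22993613 to 22995605. Next came 2L 4182695 to 4183695, 3R 32162 to 33162 and 3R 27517333 to 27518333 with 2.93, or 9 to 1, each exactly 1001 bp wide. The tenth, 3R 23999652 to 24002210, had 2.78 from a ratio of 73 to 9.

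Of these 10 top regions, 3 lay in a block, against 63.7% of all combined-only regions. With only 10 regions, whether this is a difference was not tested. The distance to the nearest replicate region ran from 1113 bp to 50484 bp in replicate 1 and from 1138 bp to 230332 bp in replicate 2 for the first 9, and was 148980 bp and 149008 bp for the tenth. All but 3 of the 10 were at most 1029 bp wide.

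High scores of combined-only regions mostly had small denominators under the constant used here, and those of shared regions mostly did not. That constant was chosen on combined-only scores, as the one that gave them the smallest whole numbers. The highest of these scores has a denominator of 1 by construction. No constant was chosen on shared regions, and how far the difference depends on this choice was not tested. Of the 86 combined-only regions with a score over 1, 44 (51.2%) had a denominator of 3 or less and 76 (88.4%) of 20 or less, with a median of 3. Of the 375 shared regions with a score over 1, 369 gave a ratio, and 2 of these (0.54%) had a denominator of 3 or less and 8 (2.17%) of 20 or less, with a median of 376. Among combined-only regions scoring 1 or below the median denominator was 155, against 314 for shared regions, which were also wider. Exact repeats of a score were common: 680 combined-only regions (34.4%) had a score that another of them had too, against 99 shared regions (4.75%). Scores over 1 were 7.09% of the combined-only regions outside blocks and 2.78% of those in blocks.

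**Figure D4:**
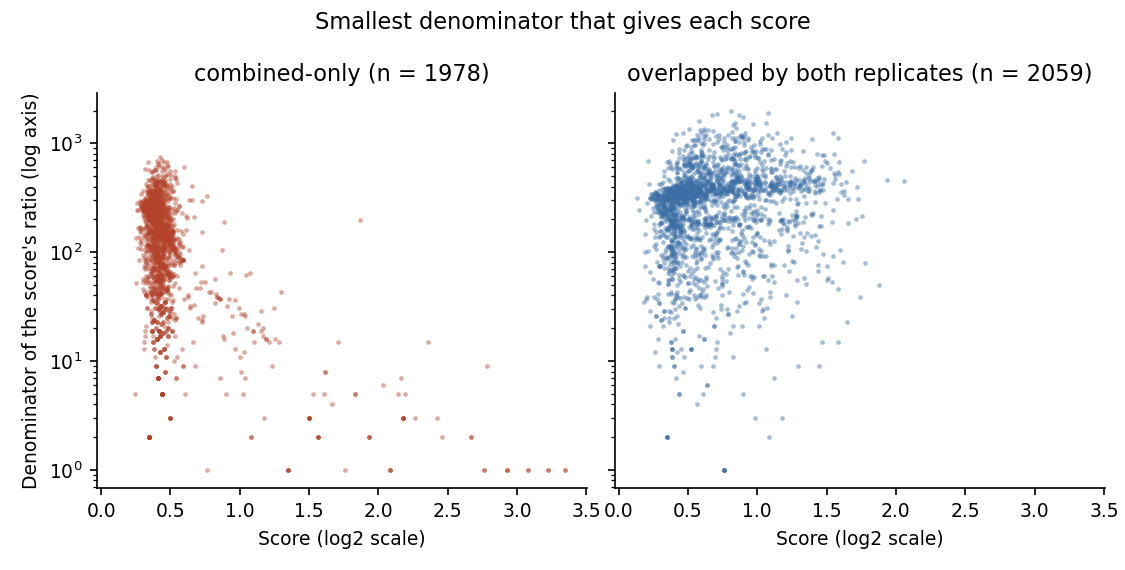
Denominator of the whole-number ratio behind each score (y axis, log axis) against the score (x axis, log2 scale), 1 point per region, for 1978 combined-only regions (left) and the 2059 regions overlapped by both replicates that gave a ratio (right). The constant behind the ratios was chosen on combined-only scores. Combined-only regions form a column near 0.42 and a tail in which denominators fall towards 1 as scores rise above 1; shared regions with scores over 1 keep a median denominator of 376.

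The highest member of each named block followed the same pattern where it stood out. In the 2L block at 8510986 it was the region 8597222 to 8598225 (score 3.22, ratio 11 to 1). In the 3R block at 11201141 it was 11444568 to 11445778 (2.46, 13 to 2), in the 3L block at 23430532 it was 24012104 to 24013104 (2.18, 16 to 3), and in the 2L block at 19058120 it was 19344960 to 19346056 (2.14, 26 to 5). Both 2L 21693130 to 21694130 and 3R 16096875 to 16098692, the highest in the blocks at 21524743 and 15504205, had 1.57 from a ratio of 7 to 2. In the 3 smaller named blocks no score stood out. The highest there were 0.58 at 3L 10708498 to 10710615 (403 to 228), 0.50 at 3L 2442783 to 2443950 (107 to 64) and 0.53 at 3R 22913382 to 22914387 (171 to 100).

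The rule itself keeps combined-only regions off replicate regions, so their distances are set beside those of the arms at large. The nearest region of either replicate was a median of 8848.5 bp from a combined-only region, edge to edge, against 10612 bp from single positions taken every 1000 bp outside all replicate regions. Of the combined-only regions, 81 (4.10%) had one within 500 bp, against 4.48% of those positions, and 150 had none within 50 kb. The measures are unlike, since a region is measured from its nearer edge, which shortens its distance, and a position has no width. A region must also be free of replicate regions over its whole width. Whether combined-only regions lie nearer to replicate regions than the arms at large was therefore not tested. Among combined-only regions the medians were 8746 bp for those in blocks and 8964 bp for those outside.

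The density of replicate regions in blocks was close to that elsewhere, lower or somewhat higher, depending on how blocks were drawn and members chosen. Members share no base with a replicate region by the rule, so this density is bound to the rule. Replicate 1 had 459 regions in blocks, 36.3 per Mb, and 35.5 per Mb outside, a ratio of 1.02. Replicate 2 had 474, or 37.5 per Mb against 35.5 per Mb, a ratio of 1.06. Under 6 other ways of drawing blocks from the same members, the ratios lay between 0.74 and 1.03 in replicate 1 and between 0.73 and 1.03 in replicate 2, with 5 of the 6 below 1 in each. Other choices of members gave other ratios. With replicate 1 left out of the rule they were 1.11 in replicate 1 and 1.08 in replicate 2. With replicate 2 left out they were 1.05 and 1.16, and with a width limit of 2000 bp 0.97 and 1.02. Scores of replicate regions were also close, with medians of 0.62 in blocks and 0.63 outside in replicate 1, and 0.78 and 0.77 in replicate 2. Median widths were 2203 bp in blocks and 2181 bp outside in replicate 1, and 2216.5 bp and 2194 bp in replicate 2. By the number of combined-only regions in a window (0, 1 to 2, 3 to 4, 5 to 7, 8 to 11 and 12 to 17), there were 3.26, 3.66, 3.59, 4.41, 3.84 and 2.17 replicate 1 regions per window, and 3.38, 3.64, 3.36, 4.52, 3.76 and 2.57 of replicate 2. They were thus most frequent at 5 to 7 and least frequent in the 30 windows with 12 to 17.

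What differed was how many of them the combined list contained. Over the 3 arms it overlapped 86.0% of replicate 1 regions and 94.6% of replicate 2 regions. In blocks it overlapped 433 of 459 replicate 1 regions (94.3%, interval 91.8% to 96.3%), against 84.3% outside (82.7% to 85.8%). For replicate 2 it overlapped 471 of 474 (99.4%, 98.2% to 99.9%), against 93.6% outside (92.5% to 94.6%). Since combined-only regions share no base with a replicate region, none of these overlaps comes from them. The share was higher in blocks on each arm: 97.1% against 84.5% on 2L, 94.2% against 84.3% on 3L and 90.1% against 84.2% on 3R in replicate 1, and 99.2% against 96.1%, 100% against 92.3% and 99.3% against 93.5% in replicate 2. The intervals cover counting error only, neighbouring regions are not independent, and the lists compared are those that chose the members, so no test was made.

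The share also moved with the number of combined-only regions in a window. In windows with 0, 1 to 2, 3 to 4, 5 to 7, 8 to 11 and 12 to 17 of them, the combined list overlapped 80.6%, 84.7%, 88.2%, 93.7%, 94.8% and 95.4% of replicate 1 regions. For replicate 2 the shares were 90.2%, 94.4%, 97.7%, 98.8%, 99.4% and 100%, the last being 77 of 77 regions. In the 30 windows richest in combined-only regions, the combined list left out 3 of 65 replicate 1 regions and 0 of 77 replicate 2 regions. In the 232 windows without any combined-only region it left out 147 of 757 and 77 of 783.

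**Figure D5:**
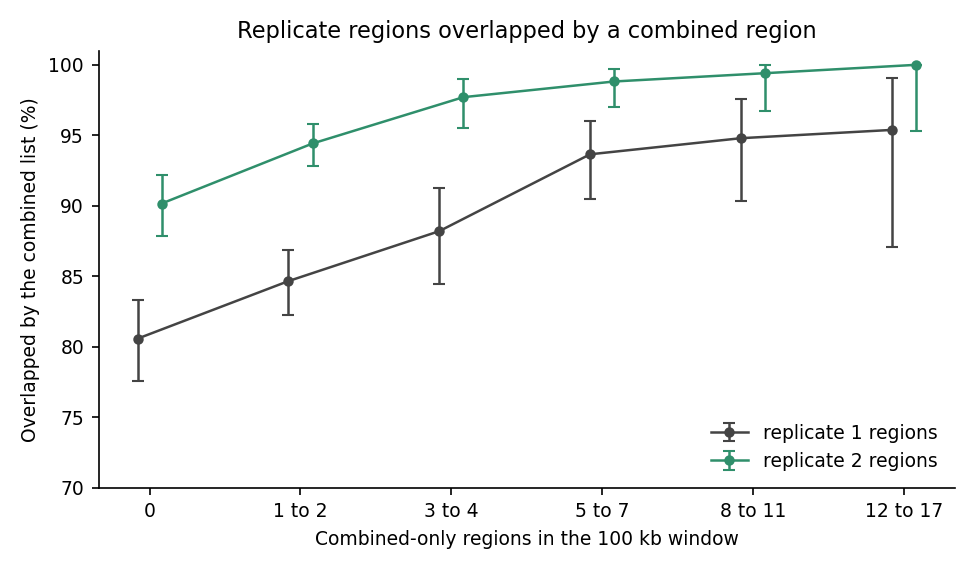
Share of replicate regions overlapped by a region of the combined list (y axis, percent, starting at 70) by the number of combined-only regions in the 100 kb window (x axis), with exact binomial 95% intervals. The share is higher in each class than in the one before it, with 80.6% at the low end and 95.4% at the high end in replicate 1, and 90.2% and 100% in replicate 2.

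Replicate regions with high scores were nearly all overlapped in and outside blocks, which leaves little room for a difference among them. Below the median replicate score of 0.62, 89.3% of replicate 1 regions in blocks and 69.7% outside were overlapped. At or above it the shares were 99.6% and 98.8%. In replicate 2, with a median score of 0.77, the shares below it were 99.1% in blocks and 87.3% outside, and those at or above it 99.6% and 100%.

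The median combined score of shared regions was lowest in windows without combined-only regions and highest in the richest windows, but it did not rise steadily. The medians in both replicates were highest in the richest windows too. In the same 6 classes of windows, in rising order, the median combined score of shared regions was 0.55, 0.61, 0.60, 0.68, 0.63 and 0.78. The median score of the replicate 1 region that overlapped each of them most was 0.76, 0.75, 0.71, 0.81, 0.68 and 0.83, and that of the replicate 2 region 0.91, 0.95, 0.87, 0.98, 0.89 and 1.04. These medians rest on 578 shared regions in the first class and 47 in the last. Each list has its own constant, so scores are set side by side and not subtracted.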

How the data were processed

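Per the file headers, the authors deposited regions of enrichment on FlyBase release 5 with a score for each, as 1 list per ChIP replicate and 1 combined list. Bowtie 0.12.7, a read aligner, is named in the submitters' processing notes. The region caller, its threshold, the filters and the way of combining replicates were not given in the sources used here. Inputs entered only through the authors' calls.

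Overlap was at least 1 shared base. Regions were assigned to 100 kb windows, counted from base 1 of an arm, by their midpoint. Lists, rule and members were chosen with earlier results of these data known. Named regions are the 3 blocks with the most members per arm, the highest-scoring member of each, the 10 highest-scoring members and the 4 at the width limit; others were chosen after their values were seen. Intervals are exact (Clopper-Pearson). No p-values were computed. The finders of blocks, overlaps and ratios were tested on simulated data. For each list 60 constants were tried, each being 2 raised to 1 score of the list, divided by a whole number. The one kept resolved the most scores and, among equals, gave the smallest whole numbers. For the combined list this choice used a sample of combined-only scores and no shared regions. Positions were not joined to genes or sequence, since the gene table at hand is on another build. Python 3.11.15, numpy 2.4.6, scipy 1.17.1 and matplotlib 3.10.9 were used.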

Additional observations from a re-analysis of the deposited data

How the results depend on the processing

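Of 88 values under alternative settings, 60 stayed within 1.5 times a count or within the interval of the main value. No paired analysis was possible because no result comes from a test across samples. When only the upper 50% of combined scores was kept, there were 477 members, 7 blocks and 12.4% of members in blocks. A width limit of 2000 bp gave 54.4% in blocks, a median gap of 6557 bp and a median score of 0.413. Windows of 50 kb gave 120 blocks with 66.2% of members and density ratios of 0.82 and 0.85 in replicates 1 and 2. Windows of 200 kb gave 34 blocks with 55.2%, and a grid moved by 50 kb gave ratios of 0.91 and 0.94. A minimum of 4 per window put 72.8% of members in blocks. A minimum of 8 gave 39 blocks, 41.5%, a gap of 3997 bp and ratios of 0.87 and 0.88. Chains of at least 10 members with gaps up to 20 kb, chosen after seeing the data, gave 35 chains with 32.2%, a gap of 3969.5 bp, ratios of 0.74 and 0.73, and 97.4% and 100% of replicate regions overlapped. Leaving out 1 replicate gave 61.5% to 66.6% of members in blocks. The cause of these changes was not tested, beyond the settings' own construction. Under the 9 alternatives run for it (not those with the upper 50% of scores, no width limit or another overlap rule), the combined list overlapped 92.5% to 97.4% of replicate 1 regions in blocks, against 83.8% to 85.5% outside, and 99.0% to 100% of replicate 2 regions in blocks, against 93.3% to 94.4% outside. Depth is unknown, so no limit on detection can be given.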

Other observations

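The 84 combined regions without a replicate that were 4000 bp or wider had a median width of 5043.5 bp and a median score of 0.48. Of the 10 with a score over 1, none had a denominator of 20 or less. Their median denominator was 401, against 3 for the 86 narrower combined-only regions with such a score, on which the constant was chosen in part. Taken over all scores, the median denominator was 569 in the 81 wide regions whose score could be resolved, against 149 in combined-only regions. The 586 regions overlapped by 1 replicate had a median score of 0.40 and a rho of width and score of 0.40, and 3 of them scored over 1.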
